A study of Mus musculus with 3 samples.

Results

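Transcripts of the BCL2 family, the proteins that keep cells alive or commit them to death at the mitochondrion, were read in satellite cells, the stem cells of skeletal muscle. The 10 members, of 20308 genes in the table, were chosen by symbol: the guardians Bcl2, Bcl2l1 and Mcl1, the effectors Bax and Bak1, and the BH3-only genes Bcl2l11, Bad, Bid, Bbc3 and Pmaip1. All 10 had a row. The cells came from hindlimb muscle of Pax7-ZsGreen mice aged 3 months, in which the green fluorescent protein ZsGreen reports on Pax7, the transcription factor that marks satellite cells. Per sample, some 200000 fluorescent cells were taken by sorting, after enzymatic digestion of muscle from several animals. The 3 libraries formed 1 group with no second genotype, treatment or time, so the family was described by its levels and not by a change. For the tissue, the labels give tibialis anterior and the series text gives hindlimb muscles.

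Guardian proteins hold the effectors and the BH3-only proteins in check. BAX and BAK1, once freed, form pores in the outer mitochondrial membrane that release cytochrome c, which sets off the caspases. BH3-only proteins report damage and stress: they occupy the guardians or activate the effectors directly. Many of these proteins are regulated by phosphorylation, cleavage or rapid degradation, so a transcript level is not a level of active protein, which was not measured.

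Levels are in TPM, a share of all transcripts that takes transcript length into account, so they can be compared between genes. A mean ± SD is over all 3 libraries (n = 3). Read totals cannot be had from TPM, so sequencing depth is unknown. Whether each library had its own pool of animals is not stated, so the p-values here rest on a spread that may be technical. The 10 satellite cell markers examined were all above 1 TPM by the limma test described below, beside 60.8% of all genes tested. Pax7, on which the sort was made, was at 56.8, 46.4 and 51.1 TPM. Markers of other muscle cells were also present, so that call does not single out satellite cells. Above 1 TPM were 6 of 6 endothelial, 4 of 6 fibro-adipogenic, 4 of 8 leukocyte and 3 of 7 fibre genes. Summed over the lists, they ranged from 1298 to 1348 TPM for 6 fibro-adipogenic genes, from 214 to 330 TPM for 8 leukocyte genes, from 158 to 250 TPM for 6 endothelial genes and from 60.8 to 95.1 TPM for 7 fibre genes. The fibro-adipogenic sum was carried by the matrix genes Dpt, Col3a1 and Dcn, while the defining marker Pdgfra was at 4.98, 0.11 and 0.06 TPM and, like Lum, not decided against 1 TPM. The T cell gene Cd3e and the fibre myosin Myh2 were listed at 0 in all libraries. How much of any family level came from those cells was not tested, and fewer cells of a type cannot be told apart from less RNA per cell. Immediate-early and stress genes, which respond to dissociation of tissue, were high: 10 of them summed to 13507, 10663 and 12109 TPM in replicates 1 to 3. No undissociated sample was measured.

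Mcl1 stood far above the rest of the family. It encodes a short-lived guardian that binds BAK1 and several BH3-only proteins. Mcl1 was at 1792, 1986 and 2092 TPM in replicates 1, 2 and 3. Its mean of 1957 ± 152 TPM ranked 78 among the 20308 genes, and 180 genes averaged at least 1000 TPM. Its lowest library exceeded the highest library of every other member. The second member was Pmaip1 (NOXA), a BH3-only protein known to bind MCL1, at 209, 137 and 111 TPM (rank 1036). Mcl1 exceeded Pmaip1 8.58-, 14.5- and 18.9-fold in the 3 libraries. Every other member averaged below 20 TPM.

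Levels were tested against 1 TPM on the log2(TPM + 0.1) scale with limma's moderated test, adjusted by Benjamini-Hochberg over all 12822 genes above 0 in at least 1 library. Of the 10 members, 5 were above 1 TPM, 4 were not decided, 0 were below it, and 1 (Bak1) was listed at 0 in all libraries and not tested. By the same rule, 60.8% of all genes tested were above 1 TPM and 2.18% below, so the members' 5 of 9 tested was close to the background. None of the 4 undecided members reached an unadjusted p under 0.05. Against 10 TPM only Mcl1 and Pmaip1 were above, where 38.2% of all genes tested were. The median over the 10 members, with Bak1 at 0 included, was 8.95 TPM. Over the genes tested, which leave out those at 0 in all libraries, it was 11.5 TPM. Of the 10 members, 6 averaged below 11.5 TPM, Bak1 among them.

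**Figure D1:**
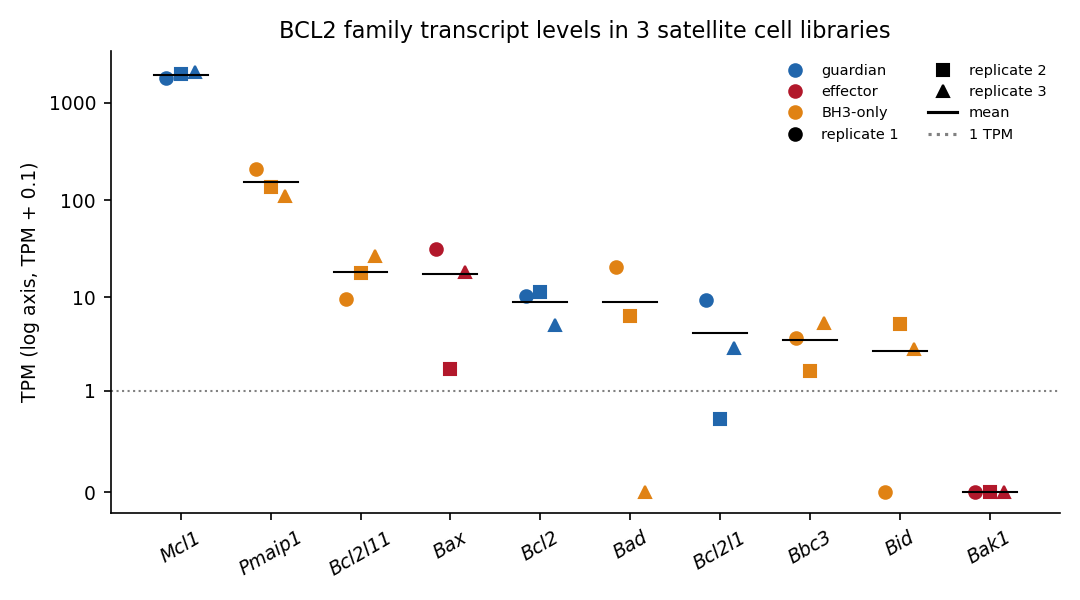
TPM of each member in replicates 1 to 3 (circle, square, triangle), on a log axis of TPM + 0.1, with the mean as a line and members ordered by mean. Mcl1 sits between 1792 and 2092 TPM and Pmaip1 between 111 and 209 TPM, while Bak1 is listed at 0 in all 3 libraries and Bad and Bid in 1 each.

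Among the guardians, the transcript pool was almost entirely Mcl1. Mcl1 (chr3:95658788-95663176, GRCm38, plus strand) held 98.9%, 99.4% and 99.6% of the summed TPM of the 3 guardians in replicates 1 to 3. Its level lay 10.79 ± 0.08 (SE) above 1 TPM on the log2 scale (limma adjusted p = 1.48e-13, 3 of 3 libraries above). Bcl2 (chr1:106538178-106714274, minus strand), the founding member of the family, was at 10.4, 11.3 and 5.13 TPM. Bcl2 passed the test against 1 TPM (2.96 ± 0.55 SE on the log2 scale, limma adjusted p = 0.000907, 3 of 3 libraries above). Bcl2l1 (chr2:152780668-152831728, minus strand), which encodes BCL-XL, was at 9.33, 0.47 and 2.96 TPM. It was high in replicate 1 and below 1 TPM in replicate 2, a 19.9-fold range, and was not decided (limma adjusted p = 0.430).

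Within each library Mcl1 exceeded Bcl2 by 7.83 ± 0.70 (SD) on the log2(TPM + 0.1) scale, a 228-fold difference. It exceeded Bcl2l1 by 7.57, 11.77 and 9.42, a mean 768-fold difference, with the spread of Bcl2l1 in it. Both held in 3 of 3 libraries, with no overlap between the genes. Bcl2l1 was below Bcl2 in each library, with differences of -0.15, -4.33 and -0.77 on that scale. The ranges of these 2 genes overlapped, so the order of Bcl2 and Bcl2l1 was not settled. For each of these pairs the exact sign-flip permutation p, two-sided, was 0.25, the smallest that 3 libraries allow (0.444 after Benjamini-Hochberg adjustment over 16 pairs).

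Shown next are the sequences just before the start sites of the 2 guardians called above 1 TPM, and of the BH3-only gene Bcl2l11. Their windows differ in base composition and motifs. In level Mcl1 lay far above the other 2 genes, whose ranges across libraries overlapped. No link between the levels and the sequences was tested. Each is the 250 bases before a RefSeq start (GRCm38.p6), 5′ to 3′ along the gene, at chr3:95658471-95658720 for Mcl1 (plus strand), chr1:106714291-106714540 for Bcl2 (minus strand) and chr2:128125788-128126037 for the first start of Bcl2l11 (plus strand). Capitals mark motif matches on either strand.
Mcl1: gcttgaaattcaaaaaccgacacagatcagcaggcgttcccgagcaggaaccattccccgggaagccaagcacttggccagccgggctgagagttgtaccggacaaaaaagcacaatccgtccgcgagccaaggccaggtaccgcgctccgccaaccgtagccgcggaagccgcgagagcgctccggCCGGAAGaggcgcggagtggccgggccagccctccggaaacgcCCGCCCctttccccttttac
Bcl2: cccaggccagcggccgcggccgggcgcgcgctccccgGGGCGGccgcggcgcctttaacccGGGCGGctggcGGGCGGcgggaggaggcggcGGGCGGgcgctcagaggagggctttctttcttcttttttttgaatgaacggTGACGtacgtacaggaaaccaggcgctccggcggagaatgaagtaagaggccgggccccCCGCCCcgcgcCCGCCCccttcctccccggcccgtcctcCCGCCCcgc
Bcl2l11: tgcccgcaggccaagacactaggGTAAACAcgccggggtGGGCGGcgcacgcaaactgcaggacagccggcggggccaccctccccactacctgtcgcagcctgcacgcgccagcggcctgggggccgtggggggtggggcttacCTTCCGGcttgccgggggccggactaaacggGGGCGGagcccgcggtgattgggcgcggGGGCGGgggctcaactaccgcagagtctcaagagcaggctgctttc

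A match in these windows is a description of letters and not a binding site. The motifs searched, on both strands, were the GC box GGGCGG, the ETS core CCGGAAG, the cyclic AMP response core TGACG, the AP-1 site TGANTCA, the FOXO site GTAAACA, the E-box CACGTG, the CArG box and the p53 decamer. No matches overlapped in the 3 windows printed. The Mcl1 window held 1 ETS core, 63 to 57 bases before the start, and 1 GC box. The Bcl2 window held 7 GC boxes and 1 cyclic AMP response core, and was 74.8% G and C against 64.4% for Mcl1. The first Bcl2l11 window held 1 FOXO site, 227 to 221 bases before the start, with 1 ETS core and 3 GC boxes. Of 32851 windows of the same length in the table, 32.7% held the GC box, 6.91% the ETS core, 17.8% the cyclic AMP response core and 3.17% the FOXO site. Over the 15 windows of the 9 members searched, 10 held a GC box. The ETS core, the FOXO site, the cyclic AMP response core and the E-box were each in 2 of them. A p53 decamer was in 1 (Bax). The AP-1 site and the CArG box were in 0 of these 15 windows, beside 6.75% and 1.47% of all windows. The E-box was in 6.02% of all windows and the p53 decamer in 7.13%. Pmaip1 was left out of the search, so its window is not described.

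The effectors gave the least even picture. Bax (chr7:45461697-45466898, minus strand), which moves from the cytosol to mitochondria to form pores, was at 31.6, 1.74 and 18.3 TPM. Replicate 2 was low: the highest library exceeded it 18.2-fold. The SD of Bax on the log2 scale was 2.18, larger than that of 95.9% of the genes averaging 10 to 100 TPM, whose median was 0.44. On the log2 scale Bax lay 3.22 above 1 TPM, or 4.46 without replicate 2 and 2.40 without replicate 1. It passed the test (limma adjusted p = 0.00401, 3 of 3 libraries above), but not when the variance trend was left out (limma adjusted p = 0.0706). Mcl1 exceeded Bax by 5.82, 10.08 and 6.83 on the log2 scale in the 3 libraries. Bcl2l1 was lower than Bax in each library, with a mean difference of -2.01 ± 0.50, although their ranges across libraries overlapped.

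Bak1 (chr17:27019810-27029009, minus strand), the effector that resides on the mitochondrial membrane and that MCL1 binds, was listed at 0 in all 3 libraries. Rps27, a ribosomal protein gene that every cell uses, is at 0 too. A 0 here does not tell a failed estimate from an absent transcript, and which of them holds for Bak1 was not tested. Hence Bak1 is described as listed at 0, with no fold against Bax. Reads can also be divided between genes that share sequence. Of the 31-base words of the longest coding Bak1 transcript (GENCODE M21), 21.3% occur in transcripts of another gene, Ggnbp1, which was listed at 13.4, 7.82 and 18.6 TPM. Ggnbp1 was chosen after its values were seen, and the part of shared reads in the Bak1 value was not tested. For Bax the share was 15.3%, with the transcript Gm45808, and for Bcl2 it was 7.60%. For the other 7 members it was at most 0.919%, counted on the longest coding transcript only. Bid, at 0% by that count, has other transcripts that hold 8.69% of the words of its relative Bcl2l13. The third pore-forming relative, Bok, which is not held by the guardians, was at 6.24, 23.0 and 9.20 TPM and above 1 TPM (limma adjusted p = 0.000229). Bax and Bok together summed to 37.9, 24.8 and 27.5 TPM.

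Among the BH3-only genes, Pmaip1 led in every library. It held 86.1%, 81.5% and 76.0% of the summed TPM of the 5 genes in replicates 1 to 3. Replicate 1 was the highest for Pmaip1, and its SD on the log2 scale, 0.46, exceeded that of 94.9% of the genes averaging 100 to 1000 TPM. Its level was 7.06 ± 0.17 (SE) above 1 TPM on the log2 scale (limma adjusted p = 1.37e-10, 3 of 3 libraries above). Pmaip1 exceeded Bcl2l11 by 4.43, 2.94 and 2.04 on the log2 scale, a mean 8.79-fold difference. Both the difference of Mcl1 and Pmaip1 and that of Pmaip1 and Bcl2l11 left no overlap between the genes.

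Bcl2l11 (BIM; chr2:128126038-128162547, plus strand), which binds all guardians and can activate BAX directly, was at 9.61, 17.9 and 26.8 TPM. It passed the test against 1 TPM (limma adjusted p = 7.80e-06, 3 of 3 libraries above). Bbc3 (PUMA; chr7:16308393-16318205, plus strand), a target of p53, was at 3.77, 1.65 and 5.37 TPM. All 3 values lay above 1 TPM, yet the level was not decided (limma adjusted p = 0.195). Bbc3 was lower than both, with differences of -2.33 ± 1.02 from Bcl2l11 and -5.46 ± 1.01 (SD) from Pmaip1 on the log2 scale. Both held in 3 of 3 libraries with no overlap, so the 3 BH3-only genes known for transcriptional induction stood in the order Pmaip1, Bcl2l11, Bbc3 in each library. Each exact sign-flip permutation p was 0.25.

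Bad and Bid, BH3-only genes whose proteins are switched on by dephosphorylation and by caspase-8 cleavage, gave no settled level. Bad (chr19:6941861-6951899, plus strand) was at 20.4, 6.45 and 0 TPM. Without replicate 3, the library at 0, Bad passed the test against 1 TPM (limma adjusted p = 1.38e-07), and with it Bad was not decided (limma adjusted p = 0.576). Bid (chr6:120891930-120916853, minus strand) was listed at 0 in replicate 1 and at 5.27 and 2.89 TPM in the others, and was not decided (limma adjusted p = 0.968). Bad was higher than Bid in replicates 1 and 2 and lower in replicate 3. A value of 0 in some library was common at this level: 46.6% of the 4553 genes averaging 1 to 10 TPM had at least 1.

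In order of mean TPM the family ran Mcl1, Pmaip1, Bcl2l11, Bax, Bcl2, Bad, Bcl2l1, Bbc3, Bid and Bak1. Of the 8 neighbouring pairs with values above 0, 2 kept 1 direction in all libraries without overlap, namely Mcl1 over Pmaip1 and Pmaip1 over Bcl2l11. The remaining 6 neighbouring pairs changed order between libraries, so neighbours from Bcl2l11 down to Bid did not differ beyond their spread. Members farther apart in that order could still separate, as Bcl2l11 and Bbc3 did. Means of Bcl2 and Bad were 8.95 ± 3.34 and 8.95 ± 10.4 TPM. Over the 16 pairs compared, Benjamini-Hochberg adjusted values of the exact permutation p ran from 0.444 to 1.

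**Figure D2:**
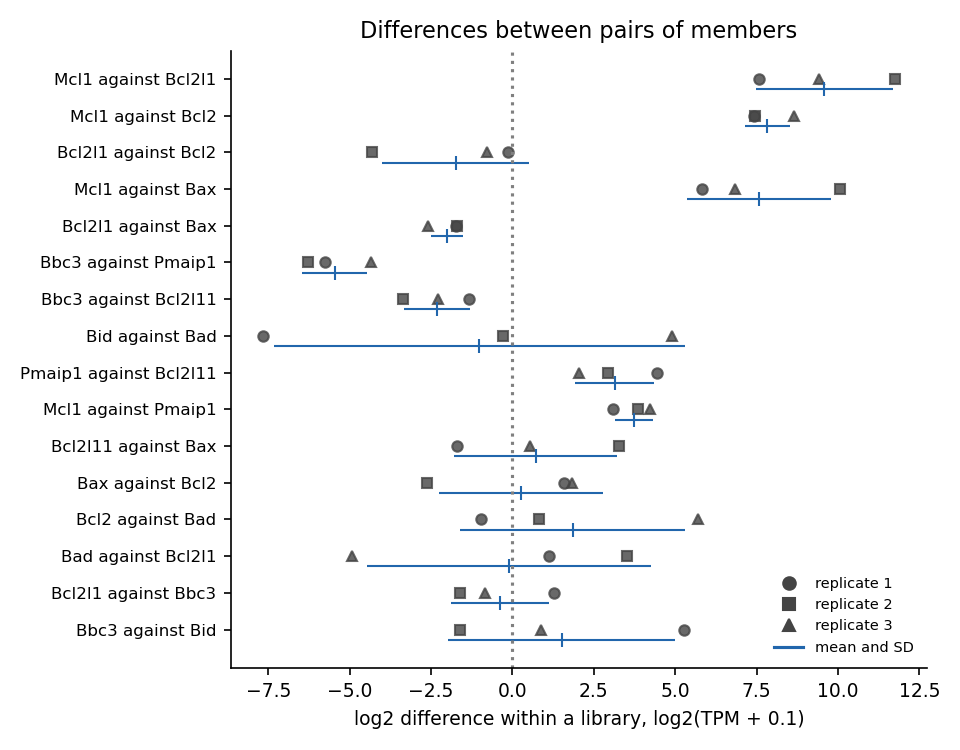
Difference of 2 members within each library on the log2(TPM + 0.1) scale for the 16 pairs, first gene minus second, with each replicate as a symbol and mean ± SD as a blue bar. Points right of 0 have the first gene higher, and Mcl1 lies right of 0 against each of its 4 partners in every library.

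Summed by class, the guardians outweighed the other classes in each library. Their summed TPM was 1812, 1998 and 2100, that of the BH3-only genes 243, 169 and 146, and that of the effectors 31.6, 1.74 and 18.3. Guardians made up 90.6% ± 3.24 of the family's summed TPM, BH3-only genes 8.62% ± 2.69 and effectors 0.801% ± 0.718. The guardians exceeded the BH3-only genes 7.47-, 11.9- and 14.4-fold, a mean log2 ratio of 3.44 ± 0.49 (SD). They exceeded the effectors by 7.62 ± 2.26 on the log2 scale, a ratio in which Bax alone stood for the 2 listed effectors, since Bak1 was at 0. That ratio was 6.34 without replicate 2, 8.50 without replicate 1, and 6.09 when Bok and the other family genes were added to their classes. The exact sign-flip permutation p of each ratio was 0.25.

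Among the listed members, the balance turned around once the leading gene of each class was set aside. Without Mcl1, the other 2 guardians summed to 19.7, 11.8 and 8.09 TPM. Without Pmaip1, the other 4 BH3-only genes summed to 33.8, 31.2 and 35.1 TPM. The guardians were then lower in 3 of 3 libraries, at 0.584, 0.378 and 0.231 of the BH3-only sum. That direction held only for the listed members. With Bcl2l2 and the A1 genes added to the guardians, and Bmf, Hrk and Bik to the BH3-only genes, an alternative chosen after seeing the data, the sums without Mcl1 and Pmaip1 were 68.6, 68.4 and 56.6 TPM for guardians and 34.6, 31.2 and 36.2 TPM for BH3-only genes. The guardians were then higher in 3 of 3 libraries, by 1.98-, 2.19- and 1.56-fold. These sums count transcripts and say nothing of the amounts of protein.

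**Figure D3:**
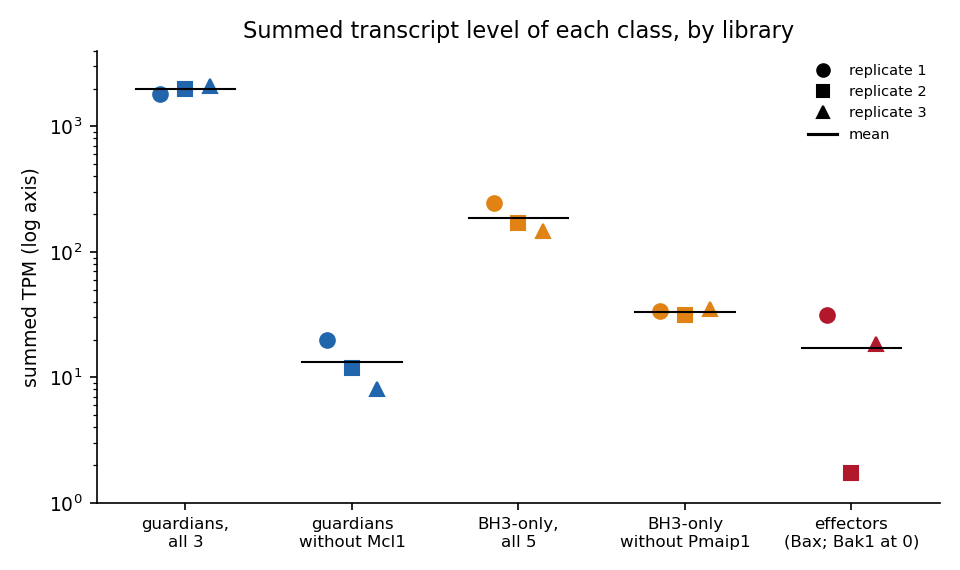
Summed TPM of each class in replicates 1 to 3 on a log axis, with and without the leading gene, and the mean as a line. With Mcl1 and Pmaip1 the guardians lie above the BH3-only genes in every library, and without them the 2 other listed guardians lie below the 4 other listed BH3-only genes.

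The family has further relatives, of which 15 were listed and all had a row. By the same limma test, 5 were above 1 TPM, 0 below, 6 not decided and 4 listed at 0 throughout. That was 5 of the 11 tested, beside 60.8% of all genes tested. The median of the 15, with the 4 at 0 included, was 5.27 TPM. The guardian Bcl2l2 (BCL-W) was even across libraries at 38.3, 40.4 and 35.0 TPM. Each of these values exceeded every value of Bcl2 and Bcl2l1, so Bcl2l2 was the second guardian by transcript level. It shares 13.3% of its 31-base words with the transcript Gm20521. The A1 guardians Bcl2a1a, Bcl2a1b and Bcl2a1d share 79.6% to 89.1% of their words with other genes, so only their sum is given: 10.5, 16.3 and 13.5 TPM.

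Relatives linked to removal of mitochondria were present as well. Bnip3l (NIX) was at 29.4, 34.3 and 14.4 TPM and Bnip3 at 11.3, 11.7 and 2.89 TPM, both above 1 TPM, with replicate 3 the lowest for each. Bnip3 shares 74.8% of its words with other genes and Bnip3l 27.4%, so these levels are uncertain. Bcl2l13 was above 1 TPM at 16.6, 28.9 and 25.3 TPM, and shares 8.69% of its words with the neighbouring Bid. Bcl2l12, at 3.54, 12.3 and 0 TPM, was not decided. The BH3-only genes Bmf and Hrk were at 0.88, 0 and 0.45 TPM and at 0, 0 and 0.66 TPM, and neither was decided. Bik, Bcl2l10, Bcl2l14 and Bcl2l15 were listed at 0 in all 3 libraries.

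Downstream of the mitochondrial pore, the gene for cytochrome c was the most abundant. Of 11 genes of the apoptosome, caspases and released proteins, limma placed 5 above 1 TPM, beside 60.8% of all genes tested. It left 6 undecided, and the median was 6.06 TPM. Cytochrome c (Cycs) averaged 127 ± 16.5 TPM, and Diablo, which relieves the caspase inhibitors, 26.4 ± 10.8 TPM. Of 7 genes of the IAP (inhibitor of apoptosis) family, 5 were tested and all 5 were above 1 TPM, beside the same 60.8%. They were led by Birc3 at 84.1 ± 16.5 TPM, Birc2 at 54.2 ± 22.1 TPM and Xiap at 22.9 ± 4.22 TPM. Naip1 and Naip2 were listed at 0 in all libraries. The median of that list was 20.8 TPM.

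The death receptor arm reaches this family through BID, which caspase-8 cleaves. Of its 8 genes 7 were tested, and limma placed 5 above 1 TPM, beside 60.8% of all genes tested. It left 2 undecided, and the median of the 8 was 56.7 TPM. The receptor Tnfrsf1a averaged 278 ± 30.9 TPM, the caspase-8 inhibitor Cflar (FLIP) 140 ± 56.7 TPM and the kinase Ripk1 123 ± 28.1 TPM. The adaptor Tradd was listed at 0 in all libraries. Casp8 itself, listed at 9.83, 9.25 and 0 TPM, was among the undecided. Casp8 was named after its values were seen.

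Transcripts of genes that regulate the members were also read, beside the 60.8% of all tested genes that were above 1 TPM. Of 7 transcription factors known to induce BH3-only genes, limma placed 5 above 1 TPM, and the median was 40.3 TPM. Jun averaged 792 ± 117 TPM, Ddit3 (CHOP) 83.8 ± 15.8 TPM and Trp53 (p53) 51.4 ± 18.1 TPM, while Trp73 was listed at 0 in all libraries. Jun is also among the 10 immediate-early and stress genes, which respond to dissociation, summed above. Both p53 inhibitors were above 1 TPM, Mdm2 at 148 ± 38.5 TPM and Mdm4 at 44.4 ± 3.65 TPM. Of 5 genes that control turnover of MCL1 protein, 3 were above 1 TPM, a share close to that background: the ubiquitin ligase Huwe1 (MULE) at 158 ± 7.65 TPM, the deubiquitinase Usp9x at 130 ± 22.4 TPM and the ligase adaptor Fbxw7 at 18.2 ± 11.3 TPM.

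Kinases and anchors of BAD and BIM followed. Of 8 kinases that phosphorylate BAD or BIM, limma placed 7 above 1 TPM, beside 60.8% of all genes tested. Their median was 96.1 TPM. Pim1 averaged 344 ± 38.1 TPM and Akt2 165 ± 8.89 TPM. All 7 genes for 14-3-3 proteins, which hold phosphorylated BAD in the cytosol, were above 1 TPM, led by Ywhaz at 1497 ± 81.2 TPM, Ywhae at 1285 ± 26.7 TPM and Ywhag at 372 ± 32.3 TPM. Their median was 181 TPM. All 7 mitochondrial or BIM partners passed as well (median 82.4 TPM), led by the dynein light chain Dynll2 at 106 ± 39.4 TPM, the channel Vdac1 at 101 ± 26.6 TPM and Dynll1 at 95.0 ± 11.2 TPM.

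**Figure D4:**
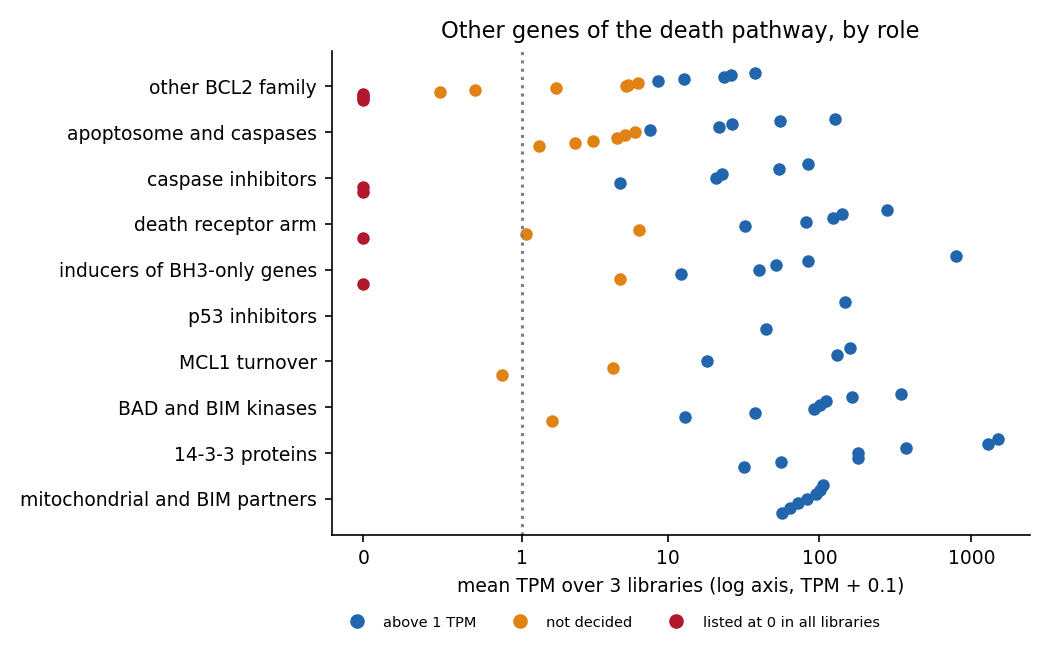
Mean TPM over 3 libraries of each gene in the 10 lists around the family, on a log axis of TPM + 0.1, coloured by the limma call against 1 TPM. The 14-3-3 proteins and the mitochondrial and BIM partners lie wholly above 1 TPM, and 8 genes are listed at 0 in all libraries. The list labelled caspase inhibitors is the IAP family.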

How the data were processed

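RNA from sorted ZsGreen-positive cells was sequenced in 3 libraries, which the sample titles place in 1 group with replicate numbers 1 to 3. The authors deposited 1 table of TPM, and by its name it lacks mitochondrial genes and was renormalised. All columns share 1 total, and 0 symbols start with mt-. The submitters' processing notes name mm10, CASAVA 1.8, Bowtie 0.12.9 and RSEM 1.2.3. The sources used here do not state roles, settings, strand or annotation.

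Levels were fitted as log2(TPM + 0.1) with limma 3.58.1 (R 4.3.3, intercept only, variance trend, two-sided against 1 TPM, adjusted p threshold 0.05) over 12822 genes. The fit was also run on simulated data with planted levels, which checked calls above 1 TPM but not false calls. The pseudocount understates folds of low genes. Pairs and class ratios were taken within libraries, with exact sign-flip permutation tests. Shared 31-base words, on either strand, used GENCODE M21 transcripts, and member positions are from that annotation. Promoters are from RefSeq.

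The members and lists were chosen with earlier results of these data known. Named genes are all members, other family genes with a row, and in each further list the 3 highest and those listed at 0. Some genes that this rule names are not reported here.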

Additional observations from a re-analysis of the deposited data

How the results depend on the processing

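No paired analysis was possible because the 3 libraries form 1 group. The number of members above 1 TPM was 5 with every pseudocount, filter, variance and scaling alternative. Without the variance trend these were not the same 5 members. Bax then dropped out (limma adjusted p = 0.0706) and Bbc3 came in (limma adjusted p = 0.0477). The number was 2 when the level was 10 TPM, and 5 to 6 when 1 replicate was left out. Without the filter, members below 1 TPM rose from 0 to 1, which was Bak1 with its spread of 0. Without the leading gene of each class, the log2 ratio of guardians to BH3-only genes went from 3.44 to -1.43, and no ratio to effectors could be formed. With the other family genes added, the log2 ratios were 6.09 for guardians over effectors, 3.47 for guardians over BH3-only genes and 2.62 for BH3-only genes over effectors. With them added and the leading listed member of each class left out, chosen after seeing the data, these were 2.55, 0.92 and 1.63. Leaving out 1 replicate gave log2 ratios of 3.23 to 3.71 for guardians over BH3-only genes, 6.34 to 8.50 for guardians over effectors and 2.97 to 4.80 for BH3-only genes over effectors. Of the 16 pair differences, 9 kept their sign in every alternative and 7 changed it in at least 1: Bid and Bad, and the 6 neighbouring pairs that changed order between libraries.

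Setting the level to 10 TPM lowers every log2 value by 3.20, so a negative value there says only that the mean on that scale lies under 10 TPM: -0.24 for Bcl2, -1.99 for Bcl2l1, -2.09 for Bad, -3.11 for Bid and -1.60 for Bbc3. The undecided levels of Bad and Bid turned in sign against 1 TPM as well. Leaving out 1 replicate gave -0.44 to 3.40 for Bad and -1.01 to 1.87 for Bid, and a pseudocount of 0.01 gave -0.92 for Bid. Without replicate 3, Bid was at -0.59. Bbc3 passed without the variance trend (limma adjusted p = 0.0477). Depth is unknown, so no counting limit can be given for members below about 10 TPM.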
